A study of Mus musculus with 2 samples.

Results

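The core proteins of the small nuclear ribonucleoproteins (snRNPs) of the major spliceosome were examined at the RNA level in whole testes. The 44 genes were chosen by symbol as the proteins of the Sm and LSm rings and of the U1, U2, U5 and U4/U6 snRNPs, and all 44 were found by Ensembl identifier among 39695 gene entries. The data were 2 RNA-seq libraries from mice aged 9 days (P9), 1 from control males and 1 from *Bcas2F/-;Vasa-Cre* males. Both genotypes had 1 floxed *Bcas2* allele and 1 deleted allele (*Bcas2F/-*), and the controls had no Cre. In *Bcas2F/-;Vasa-Cre* males the *Vasa* promoter drives Cre in germ cells, so that somatic cells of both genotypes kept the floxed allele. The labels give the strain as C57BL/6 and the study's methods describe a mixed 129/C57BL/6 line, while the number of animals per library is not given in the sources used here. With 1 library per genotype there was no replicate spread, and each comparison below is a difference between these libraries without a test.

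Each snRNP is built on a small nuclear RNA. A ring of Sm proteins closes around the U1, U2, U4 and U5 RNAs, and a ring of related LSm proteins around the U6 RNA. The U1 snRNP recognises the donor splice site and the U2 snRNP the branch site, after which the U4/U6 and U5 particles join as a tri-snRNP and the catalytic centre forms around U6, U2 and the U5 protein PRPF8. BCAS2 belongs to the Prp19/CDC5L complex, which enters the spliceosome at its activation, and is not itself an snRNP protein.

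The deposited values were RPKM, reads per kilobase of gene and per 1000000 counted reads. The totals of counted reads were inferred from the steps of these values. They came to 19918750 in the control library and 19331687 in the *Bcas2F/-;Vasa-Cre* library, at the value most common among single-transcript genes (2751 of 5403). The libraries were paired-end, and whether a counted read stands for a pair is not given in the sources used here. *Bcas2* (chr3:103171655-103179166, GRCm38), the deleted gene, had 39.5 RPKM from 1410 reads in the control and 25.7 RPKM from 888 reads in the *Bcas2F/-;Vasa-Cre* library. Its log2 ratio of RPKM + 1 was -0.60, and its counting interval, a 95% Clopper-Pearson interval for the log2 ratio of RPKM that covers counting error only, ran from -0.75 to -0.50. Log2 ratios of single genes below are of RPKM + 1, and their intervals are of this kind, without the added 1. Germ cell markers were lower in 8 of 8 cases, against 46.3% of all genes averaging 1 RPKM or more. Their summed RPKM was 766 in the control and 585 in the *Bcas2F/-;Vasa-Cre* library. By contrast, the study's RT-PCR on replicate testes of this age found *Ddx4* (*Mvh*), *Dazl*, *Kit*, *Stra8* and *Sohlh1* similar in both genotypes. It found *Dmc1*, *Sycp1*, *Sycp3* and *Smc1b* significantly lower. The study also reported no significant difference in the number of PLZF-positive spermatogonia, counted at a later age. Meiotic prophase markers were lower in 4 of 4 cases (84.1 and 54.2 RPKM summed), while Sertoli cell markers were above 0 in 6 of 6 cases (532 and 603 RPKM summed), of which *Gata4* and *Fshr* were nearly level and fell below 0 after centring on the median of all genes, which left 4 of 6 above 0. Leydig cell markers summed to 381 and 425 RPKM, myoid markers to 380 and 351, endothelial markers to 28.0 and 26.3, macrophage markers to 17.4 and 15.1, red cell markers to 921 and 923, and neutrophil markers to 21.9 and 1.32 RPKM. None of these markers was listed at 0 in both libraries, and the part of cell composition in the values below was not tested. In whole testes, fewer cells of a type and less RNA per cell cannot be told apart.

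Of the 44 genes, 43 reached 1 RPKM when both libraries were averaged, and these 43 had mean RPKM from 18.1 for *Prpf4* to 265 for *Snrpg*. Together the 43 genes held 4021 RPKM in the control and 3816 RPKM in the *Bcas2F/-;Vasa-Cre* library, which was 0.629% and 0.609% of all RPKM. *Snrpf* was the exception, with less than 1 RPKM in both libraries, and is described separately.

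**Figure D1:**
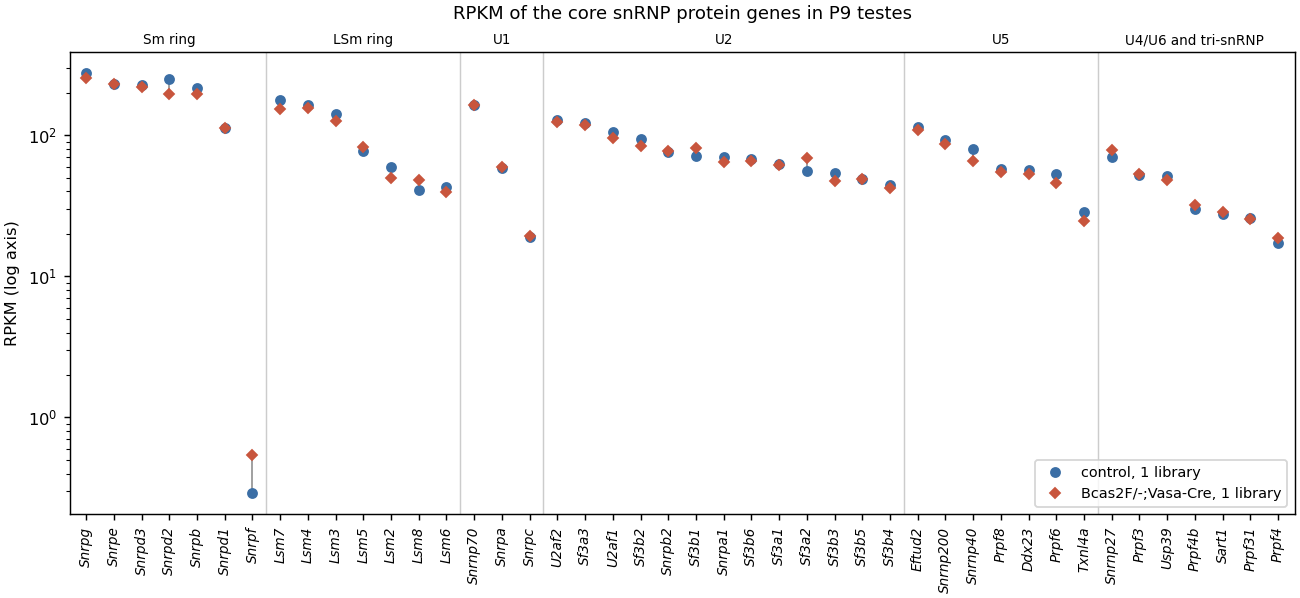
RPKM on a log axis for each of the 44 genes, ordered by snRNP and, within it, by mean RPKM; circles are the control library and diamonds the *Bcas2F/-;Vasa-Cre* library, 1 library each. The symbols of each gene but *Snrpf* lie within 1.5-fold of each other, 5 Sm genes sit highest, and *Snrpf* lies far below every other gene at 0.292 and 0.541 RPKM.

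The 5 highest levels of the set were those of Sm genes, and among the Sm genes without *Snrpf* the lowest level, that of *Snrpd1*, ranked 12 of 43. *Snrpg* (chr6:86371304-86379328), the gene of the small SmG subunit, had the highest level of all, with 277 RPKM from 3588 reads in the control and 253 RPKM from 3185 reads in the *Bcas2F/-;Vasa-Cre* library (log2 ratio -0.13, interval -0.20 to -0.06). *Snrpe* (chr1:133603871-133610291), which encodes SmE, had 232 and 233 RPKM from 2197 and 2141 reads (log2 ratio 0.01, interval -0.08 to 0.09). *Snrpd3* (chr10:75517551-75537381), which encodes SmD3, had 229 and 219 RPKM from 5506 and 5108 reads (log2 ratio -0.06, interval -0.12 to -0.01). These levels differed little between the libraries, and the interval of *Snrpe* held 0. *Snrpb*, which encodes the SmB proteins, had 215 and 198 RPKM, and *Snrpd1* had 113 and 112 RPKM.

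*Snrpd2* (chr7:19149722-19153542), which encodes SmD2, had the lowest log2 ratio of all 43 genes. Its level was 249 RPKM from 6084 reads in the control and 197 RPKM from 4672 reads in the *Bcas2F/-;Vasa-Cre* library, a log2 ratio of -0.34 (interval -0.39 to -0.28) and a ratio of 0.791. The partner of SmD2 within the ring, SmD1, did not share this difference, since the *Snrpd1* ratio was 0.995. Over the 6 Sm genes other than *Snrpf*, the median log2 ratio was -0.09, 5 of 6 were below 0, and the counting intervals of 4 lay below 0. Among all genes averaging 1 RPKM or more, 46.3% were below 0 and 17.9% had intervals below 0. For protein-coding genes in the RPKM range of the members other than *Snrpf*, the shares were 48.3% and 24.1%.

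The reads of *Snrpg* can also fit another locus. Its coding sequence of 231 bases is shown because a processed pseudogene on chromosome 17, *Gm8186*, matches all 231 bases at 100% identity, so that reads within it cannot be assigned by sequence to either locus.

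*Snrpg* coding sequence (GENCODE M21): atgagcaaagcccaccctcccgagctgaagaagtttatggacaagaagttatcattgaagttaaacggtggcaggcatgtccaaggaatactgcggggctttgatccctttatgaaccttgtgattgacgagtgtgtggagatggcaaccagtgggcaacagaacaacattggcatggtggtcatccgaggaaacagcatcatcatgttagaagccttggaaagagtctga

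*Gm8186* held 229 and 195 reads, and adding these to *Snrpg* left its log2 ratio at -0.13. A search of the coding sequences found 25 pairs of a member and another annotated gene at 90% identity or more over at least 50% of the coding sequence, involving 14 members. *Zfp410*, a protein-coding gene with 92.1% identity to the *Lsm6* coding sequence over 241 bases, was not added to it. Over all their exons, *Zfp410* had 1331 and 1223 reads and *Lsm6* had 1486 and 1334. The gene length behind the RPKM of *Lsm6* was 1728 bases, so the match covers only a part of it. The value of *Lsm6* is uncertain to that extent, and the part of such reads in it was not tested. Of the pseudogene copies, those with more than 10 reads in a library were, apart from *Gm8186*, copies of *Lsm6*, *Lsm7*, *U2af1* and *U2af2*, with at most 44 reads.

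*Snrpf* (chr10:93583029-93589706), which encodes SmF, was listed at 0.292 RPKM from 5 reads in the control and 0.541 RPKM from 9 reads in the *Bcas2F/-;Vasa-Cre* library, whereas no other Sm gene was below 112 RPKM in either library. Of its exon bases, 85.4% were shared with exons of *Ccdc38* and *4933408J17Rik*, both annotated on the opposite strand. *Ccdc38* had 12 and 20 reads, and *4933408J17Rik* had 0 and 3. The labels name the NEBNext Ultra RNA kit without its directional form, in which the strand is kept, and HTSeq can leave out reads that fall on more than 1 gene, but the counting mode is not given in the sources used here. The values of *Snrpf*, *Ccdc38* and *4933408J17Rik* are therefore uncertain, and the part of the shared exons in them was not tested. *Snrpf* does not enter the counts and medians given for the other genes. Among all protein-coding genes, the 202 with more than 80% of their exon bases shared had a median mean RPKM of 0 and reached 1 RPKM in 17.8% of cases, against a median of 2.34 RPKM and 56.0% of cases for the 14971 with none shared.

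**Figure D2:**
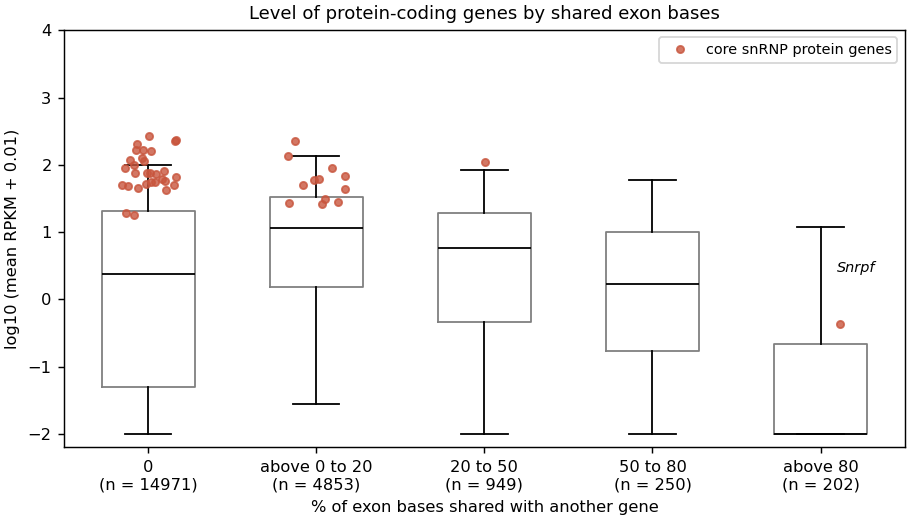
Boxes show log10 of mean RPKM + 0.01 for all protein-coding genes, by the percentage of exon bases shared with another gene (centre line median, box quartiles, whiskers the 5th and 95th percentiles); points are the 44 core snRNP genes, moved sideways to keep them apart. *Snrpf* is the only one of them in the class above 80% and the only one below 1 RPKM, while the 30 with no shared bases lie near or above the upper quartile of their class.

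No other member shared as much. Of the 44 genes, 30 shared no exon base with another gene, and among the 43 without *Snrpf* the largest share was 26.9%, in *Eftud2* with *Gm26668*. Shares of 5% or more were found in 8 of the 43 genes, *Eftud2*, *Prpf31*, *Sf3a2*, *Snrpa*, *Txnl4a*, *Snrpd3*, *Lsm3* and *Sart1*, whose values are uncertain to that extent.

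The LSm ring of U6 was expressed at lower levels than the Sm ring, and its members differed more among themselves. *Lsm7* (chr10:80852821-80855209) had the highest level of the ring, 179 RPKM from 3334 reads in the control and 154 RPKM from 2778 reads in the *Bcas2F/-;Vasa-Cre* library (log2 ratio -0.22, interval -0.29 to -0.15). *Lsm2* (chr17:34981862-34985891) had 59.4 RPKM from 934 reads and 50.2 RPKM from 765 reads (log2 ratio -0.24, interval -0.38 to -0.11). *Lsm8* (chr6:18848579-18855751), whose product separates the nuclear U6 ring from the cytoplasmic LSm ring that acts in mRNA decay, had 41.2 RPKM from 1368 reads and 48.4 RPKM from 1559 reads (log2 ratio 0.23, interval 0.13 to 0.34). Within the same ring, the log2 ratio of *Lsm8*, the highest, thus lay 0.47 above that of *Lsm2*, the lowest, and their counting intervals did not overlap. This pair was picked as the extremes of the ring, and the intervals cover counting error only, so no difference between its genes is read from the gap. *Lsm5* (chr6:56701063-56704710) had 76.8 and 83.1 RPKM from 724 and 760 reads (log2 ratio 0.11, interval -0.04 to 0.26). The other LSm genes had lower values in the *Bcas2F/-;Vasa-Cre* library, with 141 and 126 RPKM for *Lsm3*, 163 and 155 RPKM for *Lsm4*, and 43.2 and 39.9 RPKM for *Lsm6*. The median log2 ratio of the 7 LSm genes was -0.11, with 5 of 7 below 0, against 46.3% of all genes averaging 1 RPKM or more.

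Each Sm protein has a counterpart at the same place in the LSm ring, which allows levels per kilobase to be set side by side. Without *Snrpf* and its counterpart *Lsm6*, the RPKM of the Sm gene was higher than that of its LSm counterpart in 6 of 6 pairs in both libraries, by 1.40 to 5.23 times in the control and 1.41 to 4.09 times in the *Bcas2F/-;Vasa-Cre* library. The smallest ratio was that of *Snrpd3* to *Lsm4*, and the largest that of *Snrpb* to *Lsm8*. The order held in 6 of 6 pairs when reads were divided by the mean annotated transcript length (1.13 to 4.31 times in the control) or by the longest one (1.06 to 6.69 times in the control).

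The U1-specific genes differed least. *Snrnp70*, whose product contacts the U1 RNA and splicing regulators, had 164 and 165 RPKM, and *Snrpa*, the gene of another RNA-binding protein of U1, had 58.9 and 59.5 RPKM. *Snrpc* (chr17:27838150-27851968), the gene of a zinc finger protein that steadies the pairing of U1 with the donor site, was among the 3 lowest genes in level, with 19.1 RPKM from 1319 reads and 19.3 RPKM from 1292 reads (log2 ratio 0.01, interval -0.10 to 0.13). The log2 ratios of these 3 genes lay between 0.010 and 0.014 although their mean levels spanned 8.57 times, all 3 counting intervals held 0, and all 3 log2 ratios fell just below 0 after centring on the median of all genes.

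The U2-specific genes, including the subunits of SF3A, SF3B and the U2 auxiliary factor, moved in both directions. *Sf3a2* (chr10:80798198-80804924), a subunit of SF3A, had the highest log2 ratio of all 43 genes, with 56.1 RPKM from 1145 reads in the control and 68.6 RPKM from 1357 reads in the *Bcas2F/-;Vasa-Cre* library (log2 ratio 0.28, interval 0.17 to 0.40). The other SF3A subunits were level, at 63.0 and 61.9 RPKM for *Sf3a1* and 121 and 118 RPKM for *Sf3a3*. *Sf3a2* shares 16.1% of its exon bases with *Plekhj1* on the opposite strand (41.4 and 43.2 RPKM) and ends 318 bases before *Amh* on the same strand. *Amh*, the anti-Müllerian hormone gene of Sertoli cells, had 134 and 172 RPKM (log2 ratio 0.36). The part of these neighbours in the *Sf3a2* value was not tested.

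In SF3B, which holds the branch site, *Sf3b1* (chr1:54985169-55027481), the gene of its large scaffold subunit, had 71.0 RPKM from 4377 reads and 81.3 RPKM from 4868 reads (log2 ratio 0.19, interval 0.14 to 0.26). *Sf3b3*, another large subunit, had 54.0 and 47.3 RPKM, and *Sf3b2* had 94.2 and 83.7 RPKM. The log2 ratios of *Sf3b1* and *Sf3b3*, the highest and lowest among the listed SF3B genes, differed by 0.38, and their counting intervals did not overlap. Because the pair was picked as these extremes and the intervals leave out the spread between animals, no difference between subunits is read from this gap. *Sf3b4* had 44.1 and 42.6 RPKM, *Sf3b6*, which sits at the branch site adenosine, had 67.9 and 65.8 RPKM, and *Sf3b5* had 48.8 and 49.0 RPKM. *Sf3b5* is annotated with 1 exon, whereas the median over the 44 genes was 8.5 exons in the transcript with the most. Among the remaining U2 genes, *U2af1*, whose product reads the AG of the acceptor site, had 105 and 95.2 RPKM, and *U2af2*, whose product binds the pyrimidine tract, had 129 and 124 RPKM. *Snrpa1* had 70.6 and 64.4 RPKM and *Snrpb2* had 76.2 and 77.0 RPKM. Over the 13 U2 genes the median log2 ratio was -0.05, 9 were below 0, and the counting intervals lay below 0 for 4 and above 0 for 2. Among all genes averaging 1 RPKM or more, 46.3% were below 0. Their counting intervals lay below 0 for 17.9% and above 0 for 19.9%.

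The U5-specific genes were lower in the *Bcas2F/-;Vasa-Cre* library in 7 of 7 cases, by small amounts. Of all genes averaging 1 RPKM or more, 46.3% were lower. *Snrnp40* (chr4:130360132-130390026), the gene of a WD-repeat protein of U5, had 79.6 RPKM from 1930 reads in the control and 66.0 RPKM from 1555 reads in the *Bcas2F/-;Vasa-Cre* library (log2 ratio -0.26, interval -0.37 to -0.17). *Prpf6* (chr2:181591868-181655660), which bridges U5 and U4/U6 in the tri-snRNP, had 53.6 RPKM from 2377 reads and 45.8 RPKM from 1971 reads (log2 ratio -0.22, interval -0.31 to -0.14). *Txnl4a*, the gene of the small U5 protein DIM1, had 28.6 and 24.7 RPKM. The large subunits were nearer to 0. *Prpf8*, the scaffold of the catalytic centre, had 58.1 and 54.9 RPKM, *Snrnp200*, the helicase that unwinds U4 from U6, had 92.9 and 86.8 RPKM, and *Eftud2*, a GTPase, had 115 and 109 RPKM. *Ddx23*, the helicase that releases U1, had 56.4 and 53.3 RPKM. The median log2 ratio of the 7 genes was -0.10, and 6 of the 7 counting intervals lay below 0, with that of *Ddx23* holding 0. Intervals lay below 0 for 17.9% of all genes and 24.1% of protein-coding genes in the RPKM range of the members.

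The U4/U6 and tri-snRNP genes were the least expressed group by median RPKM, with a median log2 ratio of 0.05. Log2 ratios were above 0 for 5 of 7, against 53.7% of all genes averaging 1 RPKM or more, and no direction of the group is read from this count. *Prpf4* (chr4:62408797-62426990), a U4/U6 protein, had the lowest level of the 43 genes, 17.4 RPKM from 1061 reads and 18.8 RPKM from 1116 reads (log2 ratio 0.11, interval -0.01 to 0.24). Its binding partner *Prpf3* had 52.2 and 52.9 RPKM. *Prpf31* (chr7:3629985-3642486), which binds U4, had 26.0 RPKM from 1060 reads and 25.5 RPKM from 1008 reads (log2 ratio -0.03, interval -0.16 to 0.10). These 3 genes of the U4/U6 particle had counting intervals that held 0. *Snrnp27* (chr6:86675151-86684522), a small tri-snRNP protein, had 70.6 RPKM from 1060 reads and 78.4 RPKM from 1143 reads (log2 ratio 0.15, interval 0.03 to 0.27). *Prpf4b*, a kinase of the tri-snRNP, had 30.2 and 32.3 RPKM, *Sart1* had 27.7 and 28.7 RPKM, and *Usp39* had 51.7 and 48.4 RPKM. Of these 7 genes, the intervals of *Snrnp27* and *Prpf4b* lay above 0 and none lay below. Intervals lay above 0 for 19.9% of all genes averaging 1 RPKM or more. Among protein-coding genes in the RPKM range of the members, this share was 25.7%.

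**Figure D3:**
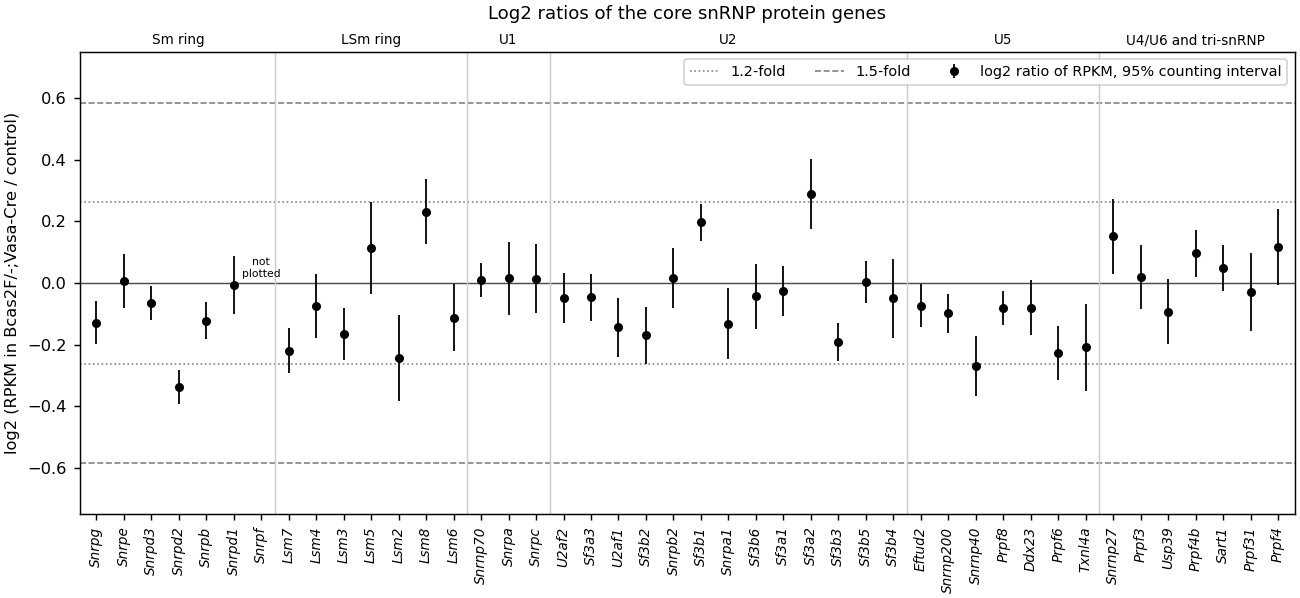
Log2 ratio of RPKM (*Bcas2F/-;Vasa-Cre* over control) for 43 genes, in the order of the plot of RPKM; bars are 95% counting intervals and cover counting error only, and dotted and dashed lines mark 1.2-fold and 1.5-fold. The points lie within 1.5-fold, and *Snrpd2* and *Snrnp40* lie below and *Sf3a2* above the 1.2-fold lines. All 7 U5 genes lie below 0, as did 46.3% of all genes averaging 1 RPKM or more. *Snrpf* is not plotted.

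None of the 43 genes passed 1.5-fold in either direction. Among all 14831 genes that averaged 1 RPKM or more, 1.69% were lower and 1.57% higher by more than 1.5-fold, and among the 5994 protein-coding genes that averaged between 18.1 and 265 RPKM, the range of the 43 genes, the shares were 0.551% and 0.0834%. At shares of this size, a count of 0 of 43 is near the background. At 1.2-fold, 2 of 43 genes were lower, *Snrpd2* and *Snrnp40*, against a background of 9.37% of all genes and 6.16% of protein-coding genes in that range. *Sf3a2* alone was more than 1.2-fold higher, against 8.91% and 2.69%. *Snrnp40* lay just past the limit, and came to -0.24 when RPKM was rescaled to the same sum in both libraries. *Sf3a2* dropped out when genes sharing 5% or more of their exon bases were set aside, which left 0 genes more than 1.2-fold higher.

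By direction alone, 28 of 43 genes (65.1%) were lower in the *Bcas2F/-;Vasa-Cre* library, against 46.3% of all genes and 48.3% of protein-coding genes in the same range. The differences were small. The median log2 ratio was -0.05 over the 43 genes, 0.02 over all genes and 0.01 over the protein-coding genes in range. The log2 ratios of the 43 genes had an SD of 0.13, against 0.16 in the protein-coding genes in range, whose middle 95% ran from -0.38 to 0.27. *Sf3a2*, at 0.28, was the only one of the 43 outside those limits. The counting interval lay below 0 for 18 of 43 genes, against 17.9% of all genes and 24.1% of protein-coding genes in range, and above 0 for 5 of 43, against 19.9% and 25.7%. The median log2 ratio of the germ cell markers, -0.39, lay below that of each of the 43 genes, and the part of germ cell content in the lower values was not tested.

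**Figure D4:**
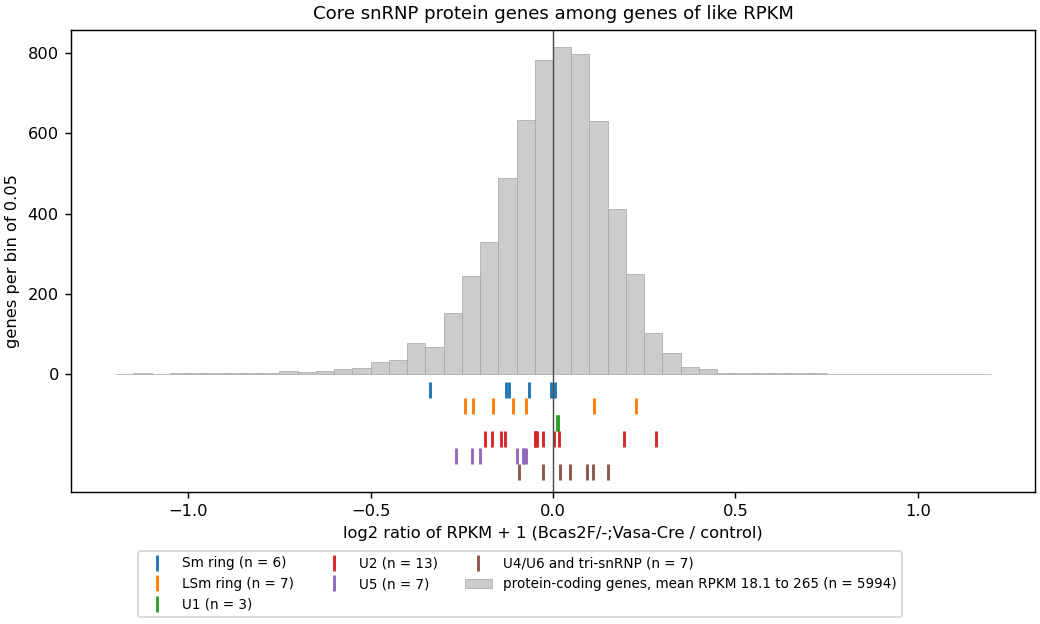
Grey bars count the 5994 protein-coding genes that averaged 18.1 to 265 RPKM in bins of log2 ratio of RPKM + 1 (*Bcas2F/-;Vasa-Cre* over control); coloured ticks under the axis are the core snRNP genes by group. All ticks but that of *Sf3a2* lie within the middle 95% of the bars, -0.38 to 0.27, with U5 ticks all left of 0 and the 3 U1 ticks together just right of it, a side that changes after centring on the median of all genes.

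A short sequence feature that had no part in the choice of these genes occurred in most, but not all, of the promoter windows found for them. RefSeq windows of 300 bases, from 250 before to 50 after the start of the gene on GRCm38.p6, were matched by symbol for 33 of 44 genes, and not for *Ddx23*, *Eftud2*, *Lsm4*, *Sf3b4*, *Sf3b5*, *Snrnp40*, *Snrpb*, *Snrpd1*, *Txnl4a*, *U2af2* and *Usp39*. The letters CGGAAG, the core that ETS-family factors bind, occurred on either strand in 22 of 33 windows (66.7%), against 17.2% of 27025 windows over all genes and 31.5% of 10253 windows of protein-coding genes averaging 1 RPKM or more (expressed protein-coding genes). The set of expressed protein-coding genes reaches below the levels of the members other than *Snrpf*, and windows of genes of like level were not compared. By group, 9 of 10 U2 windows held CGGAAG, but 2 of 6 LSm windows. GGGCGG, the core bound by SP1, occurred in 66.7% of member windows and 65.2% of those of expressed protein-coding genes. CCAAT occurred in 33.3% and 39.1%, TATAAA in 6.06% and 6.71%, and GCATGCGC, the core bound by NRF1, in 9.09% and 5.70%. The median GC content was 58.0% in member windows and 61.0% in those of expressed protein-coding genes.

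The stretches around the core are shown for the 7 of the 10 genes with the lowest or highest log2 ratios that held it, because they occur at both ends of the range. Each has 30 bases of the RefSeq reference, written so that the core reads CGGAAG, in capitals, and the match nearest the RefSeq start is given. Distances are from the RefSeq start of the window, which can differ from the GENCODE M21 gene bounds given with the levels. On those bounds, the stretches of *Snrpd2*, *Lsm5*, *Sf3a2* and *Prpf6* lie inside the gene, beginning 72, 16, 450 and 9460 bases from its M21 start. Those of *Lsm7* and *Sf3b1* lie before the gene, and that of *Snrnp27* runs across its M21 start.
*Snrpd2*, chr7:19149794-19149823, plus strand, 29 bases before the RefSeq start: agccgcaggagaCGGAAGtcccgcccttct
*Prpf6*, chr2:181601328-181601357, minus strand, 24 bases after the RefSeq start: tcacccgcgcacCGGAAGtagagagctggg
*Lsm7*, chr10:80855296-80855325, minus strand, 101 bases before the RefSeq start: cgcagctctaggCGGAAGgtttcctggcaa
*Lsm5*, chr6:56704665-56704694, plus strand, 20 bases after the RefSeq start: ccatggccacgcCGGAAGtggctaaggaca
*Snrnp27*, chr6:86684517-86684546, minus strand, 40 bases before the RefSeq start: ttccagctgctcCGGAAGttgtggggttgt
*Sf3b1*, chr1:55027592-55027621, plus strand, 128 bases before the RefSeq start: gaagactaaacgCGGAAGaggatggctact
*Sf3a2*, chr10:80798648-80798677, plus strand, 72 bases before the RefSeq start: cgcctttgctccCGGAAGggatcgcttcgt
The windows of *Lsm2* and *Lsm8* did not hold these letters. Genes with and without the core lay on both sides of 0. Of the 22 genes with it, 11 had a log2 ratio below 0, with a median of -0.01 and a range of -0.34 to 0.28. Of the 10 genes without it, *Snrpf* set aside, 7 were below 0, with a median of -0.07 and a range of -0.24 to 0.23. A match of these letters is a description of the window and not a measured binding site.

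Genes that act with the snRNPs were read in the same way. Of 12 other snRNP-associated genes, 11 averaged 1 RPKM or more, with a median log2 ratio of 0.03. More than 1.2-fold lower were *Ppih*, a cyclophilin of the tri-snRNP (66.8 and 54.4 RPKM, log2 ratio -0.29), and *Mfap1b* (6.09 and 4.48 RPKM, log2 ratio -0.37), which has a near-identical partner in *Mfap1a* (6.67 and 6.20 RPKM), so its own value is uncertain. *Snrpn* was not matched by identifier and is not analysed here. Of 19 genes of snRNP assembly, which load the Sm ring and bring the particles to the nucleus, 18 averaged 1 RPKM or more and none passed 1.2-fold. *Gemin5*, which recognises the small nuclear RNAs, differed most, with 28.2 and 23.6 RPKM (log2 ratio -0.24), and the median of the 18 was -0.07. *Gemin4* was listed at 0.186 and 0.384 RPKM and shared 91.3% of its exon bases with *Dbil5*, *Fam57a* and *Glod4*.

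In the Prp19/CDC5L complex, *Bcas2* itself was the only gene of 7 past 1.2-fold, and the median log2 ratio was -0.05. Among 12 spliceosomal helicases and step factors, 2 were more than 1.2-fold lower, against 9.37% of all genes averaging 1 RPKM or more. They were the helicase *Dhx16* (51.2 and 41.7 RPKM, log2 ratio -0.29) and *Prpf38a* (36.0 and 29.5 RPKM, log2 ratio -0.28). The median of the 12 was 0.02. Apart from *Bcas2*, none of the genes of these 4 lists passed 1.5-fold, and of all genes only 1.69% were lower and 1.57% higher by that much.

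**Figure D5:**
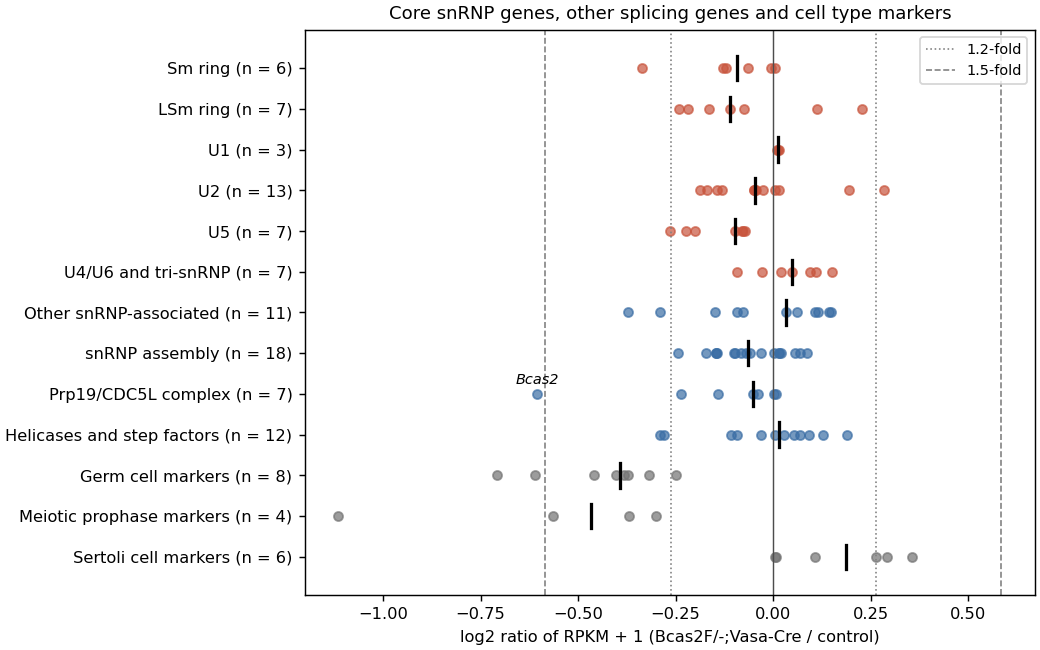
Log2 ratio of RPKM + 1 (*Bcas2F/-;Vasa-Cre* over control) of each gene that averaged 1 RPKM or more, by list; red points are core snRNP genes, blue points other splicing genes and grey points cell type markers, black ticks are list medians, and dotted and dashed lines mark 1.2-fold and 1.5-fold. Medians of the splicing lists lie between -0.11 and 0.05, those of germ cell and prophase markers at -0.39 and -0.47, and that of Sertoli cell markers at 0.19, with *Bcas2* the only splicing gene past 1.5-fold.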

How the data were processed

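Whole-testis RNA was sequenced as paired-end libraries (NEBNext Ultra RNA kit). The authors removed adaptor and low-quality reads, aligned with TopHat2 2.0.9 (build mm10 per the submitters' processing notes), counted with HTSeq and deposited RPKM values for every gene entry. The annotation release and counting mode are not given in the sources used here.

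From these files, entries were joined by Ensembl identifier and matched to GENCODE M21 on GRCm38 (37606 of 39695 entries). Log2 ratios of RPKM + 1 were computed, so the pseudocount of 1 understates differences of low genes, and genes averaging 1 RPKM or more were kept. The members and lists were chosen with earlier results of these data known. The rule for full values was *Bcas2*, the 5 highest and 5 lowest log2 ratios and the 3 highest and 3 lowest levels among members, and, in other splicing lists, genes past 1.2-fold or, where there was none, the gene that differed most.

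Whole reads were recovered from the steps of the RPKM values. Of 22040 genes above 0 in both libraries, 99.3% gave a ratio of whole reads, and 99.9% of annotated ones a whole gene length within 0.01 bases. For 9 members only 1 whole length fell in the annotated range; for the others the reads could be off by a whole factor, which changes the width of an interval but not the ratio. Intervals are 95% Clopper-Pearson intervals of the reads, without a pseudocount, and cover counting error only. No count model was run, because 1 library per genotype leaves no spread. Exon sharing was computed with bedtools 2.31.1, and near-identical copies with BLAST+ 2.17.0. Read recovery and intervals were tried on simulated reads with counting error only. The simulation took over the recovered library totals and gene lengths, so it did not test these or the spread between animals. Python 3.11.15, numpy 2.4.6, pandas 2.3.3, scipy 1.17.1 and matplotlib 3.10.9 were used.

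Alternatives were pseudocounts of 0.1 and 0.01, centring on the median of all genes, rescaling of RPKM to a sum of 1000000, no filter or a filter at 5 RPKM, addition of pseudogene copies, and, chosen after seeing the data, members sharing under 5% of exon bases and other transcript lengths for the Sm and LSm pairs.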

Additional observations from a re-analysis of the deposited data

How the results depend on the processing

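The median log2 ratio of the core snRNP genes and their counts by fold and direction were recomputed under the alternatives, and the medians of the 6 groups under those other than the filter at 5 RPKM and the limit on shared exon bases; the counting interval was joined to the 1.2-fold limit only. Counts stayed within 1.5 times and medians within 0.0932, the median of the intervals' widths to either side, in 84 of 86 values, and the exceptions were counts at 1.2-fold. The count of genes more than 1.2-fold lower fell from 2 to 1 when RPKM was rescaled to a sum of 1000000, which moved *Snrnp40* to -0.24, and the count more than 1.2-fold higher fell from 1 to 0 when genes sharing 5% or more of their exon bases were set aside, which removed *Sf3a2*. No log2 ratio of a single gene moved by more than its own counting interval in 220 comparisons, but this could hardly come out otherwise. Centring moved each gene by 0.015, and rescaling moved all but *Snrpf* by a nearly constant amount. Smaller pseudocounts hardly alter genes at 18.1 RPKM or more, and 30 of the 44 genes had no copy to add. The narrowest interval was 0.11 wide. After centring on the median of all genes, 5 genes near 0 changed sign, *Sf3b5*, *Snrnp70*, *Snrpa*, *Snrpc* and *Snrpe*, and the median of the 3 U1 genes became -0.003. With rescaled RPKM, the median of the 43 genes moved from -0.049 to -0.022 and that of the U2 genes from -0.046 to -0.018, and *Sf3a1* and *Snrpd1* changed sign. The number of genes above 0 ranged from 10 to 17 over the alternatives, and its fall from 15 to 10 after centring was still counted as within 1.5 times. Several of the 86 values could change little or not at all, because each of the 43 genes averaged 18.1 RPKM or more. The filter at 5 RPKM kept the same 43 genes, and leaving out the filter added *Snrpf* only. No paired analysis was possible because each genotype had 1 library, and no library could be left out. Counting error limited single genes to a median interval width of 0.19 on the log2 scale, and the spread between animals is unknown.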

Other observations

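Protein-coding genes with nearly all exon bases shared with another annotated gene, coding or not, had low listed values beyond *Snrpf* and *Gemin4*. The share of protein-coding genes that averaged 1 RPKM or more was 56.0% with no shared bases (14971 genes), 78.3% with above 0 to 20% (4853 genes), 67.7% at 20 to 50% (949 genes), 57.2% at 50 to 80% (250 genes) and 17.8% above 80% (202 genes). The medians of mean RPKM were 2.34, 11.6, 5.79, 1.69 and 0 in the same order, so that of the class at 50 to 80% was also below that with no shared bases. The part of read counting in these values was not tested.

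Among the splicing genes outside the core snRNPs, the LUC7-like proteins of the U1 snRNP had higher values in the *Bcas2F/-;Vasa-Cre* library in 3 of 3 cases. This group was singled out after its values were seen, and 53.7% of all genes averaging 1 RPKM or more were also higher. *Luc7l* had 84.1 and 91.2 RPKM, *Luc7l2* had 110 and 121 RPKM, and *Luc7l3* had 192 and 213 RPKM. Their log2 ratios of 0.12, 0.14 and 0.15 lay below 1.2-fold.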
